A study of Mus musculus with 14 samples.

Results

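Liver tumours of the mouse in which Cul3 had been targeted were compared with tumours that carried a guide RNA against GFP. The sgCul3 group had 3 tumours and the sgGFP group 4, which together are 7 of the 14 samples of the study, and they were chosen by the genotype that the labels give. All of them were hepatocellular carcinomas driven by MYC, and the guides, per the labels, worked with Cas9. RNA of whole tumours was sequenced in bulk. The labels call the cells hepatocytes and give no strain, sex, age, driving promoter or number of mice, so p-values measure the spread between these tumours, which may be technical in part. Beside them, a group of 3 sgKeap1 tumours stood in the same table, while 2 sgNrf2 tumours, in which the ETGE motif of NRF2 was targeted, stood in a second table that was scaled separately, beside 2 control libraries, A and B. The labels describe control A as a repeat of sgGFP tumour 2 and control B as one of sgGFP tumour 4.

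CUL3 is the scaffold of a family of ubiquitin ligases. One end of it binds an adaptor with a BTB domain, which chooses the protein to be marked. The other end binds RBX1, which brings in the enzyme that carries ubiquitin, and the small modifier NEDD8 switches the complex on until the COP9 signalosome removes it. KEAP1 is the adaptor for the transcription factor NRF2, and the study targeted Cul3 as a negative regulator of NRF2. Other adaptors of CUL3 are known to act on cyclin E, on the COPII coat of secretory vesicles and on the Aurora kinases, so loss of the scaffold could reach beyond the genes that NRF2 switches on. The results below concern mainly the genes that are on neither a list of NRF2 targets nor a list of glutathione S-transferases.

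Reads on genes numbered 6333025, 10888667 and 10954518 for sgCul3 tumours 1 to 3, and lay between 10739965 and 12008223 for the sgGFP tumours. A count of 0 therefore allows up to 0.474 CPM in the shallowest of the 7 libraries and 0.250 CPM in the deepest, for counting error only. Levels below are normalised reads, the authors' scaled counts with the 1 that they had added to every entry removed. All 15 hepatocyte markers had reads in all 7 tumours, and their summed level was 122880 to 326370 in sgCul3 tumours and 109430 to 355640 in sgGFP tumours. Tumours of both groups differed among themselves. Measured from the sgGFP mean, the median member of the hepatocyte list lay at -0.84, 0.63 and -0.53 on the log2 scale in sgCul3 tumours 1 to 3 and at -1.0, -0.19, 0.73 and 0.67 in sgGFP tumours 1 to 4. That of the list of cytochromes P450 lay at -0.85, 2.25 and 0.57 in sgCul3 tumours and at -1.11, -0.10, 0.46 and 0.65 in sgGFP tumours. In bulk RNA, fewer cells of a type and less RNA per cell cannot be told apart.

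The transcript of the targeted gene was lower but did not pass the test over all genes. Cul3 (ENSMUSG00000004364.14, chromosome 1 of GRCm38 from 80264923 to 80340480) had 163, 426 and 676 normalised reads in sgCul3 tumours 1 to 3, against 1372, 1247, 1202 and 935 in sgGFP tumours 1 to 4. Each sgCul3 tumour lay below every sgGFP tumour, and tumour 1 was the lowest. The log2 fold change was -1.7 ± 0.39 (SE), with a limma adjusted p of 0.0509. It was 0.0167 without sgCul3 tumour 3, 0.0439 after quantile normalization 0.00493 with DESeq2 and just under the threshold with no filter on low values, in a range of 0.00493 to 0.127 over the alternatives. A guide can disrupt the protein and leave its transcript in place, so these reads do not measure the edit.

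The rest of the ligase machinery gave no call. Of 26 tested genes of the CUL3 core, the NEDD8 pathway and the COP9 signalosome, 0 passed in either direction by limma, edgeR and DESeq2 apart from Cul3 itself with DESeq2, and the median log2 fold change was 0.18, against 0.01 over all genes tested. Rbx1, the RING partner, had 1268, 1390.5 and 936 normalised reads in sgCul3 tumours and 811, 899, 613 and 1172 in sgGFP tumours, and the groups overlapped. Nedd8 had 1774, 2251 and 2166 in sgCul3 against 1722, 1957, 1422 and 1977 in sgGFP tumours, again with overlap. Its log2 fold change was 0.23 ± 0.21 (limma adjusted p = 0.639). Keap1, the adaptor for NRF2, had 1149.5, 907 and 823 normalised reads in sgCul3 tumours, each above the 582 to 721 of sgGFP tumours, yet its change of 0.55 ± 0.21 missed the threshold (adjusted p = 0.215). Nfe2l2, which encodes NRF2, had 589, 682 and 1342 in sgCul3 tumours and 914, 1084, 842 and 629 in sgGFP tumours. Of 21 tested genes of the other cullins and their partners, 0 passed by limma.

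Across 13045 genes tested, limma called 176 higher in sgCul3 tumours (1.35%) and 111 lower (0.851%), 2.20% in all. At an unadjusted p under 0.05 there were 2241 genes. All sgCul3 tumours lay above all sgGFP tumours in 8.71% of the genes tested and below them in 7.54%, 16.2% in all. Of the 176 higher genes, 36 were on the lists of NRF2 targets and glutathione S-transferases, while 0 of the 111 lower genes were. On neither list were thus 140 higher genes (1.08% of the 12954 such genes tested) and 111 lower ones (0.857%). Their median change was 1.92 among the higher genes and 2.17 among the lower, as sizes on the log2 scale, with ranges of 0.81 to 5.36 and 0.88 to 5.44. Protein-coding genes made up 131 of the 140 and 102 of the 111.

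**Figure D1:**
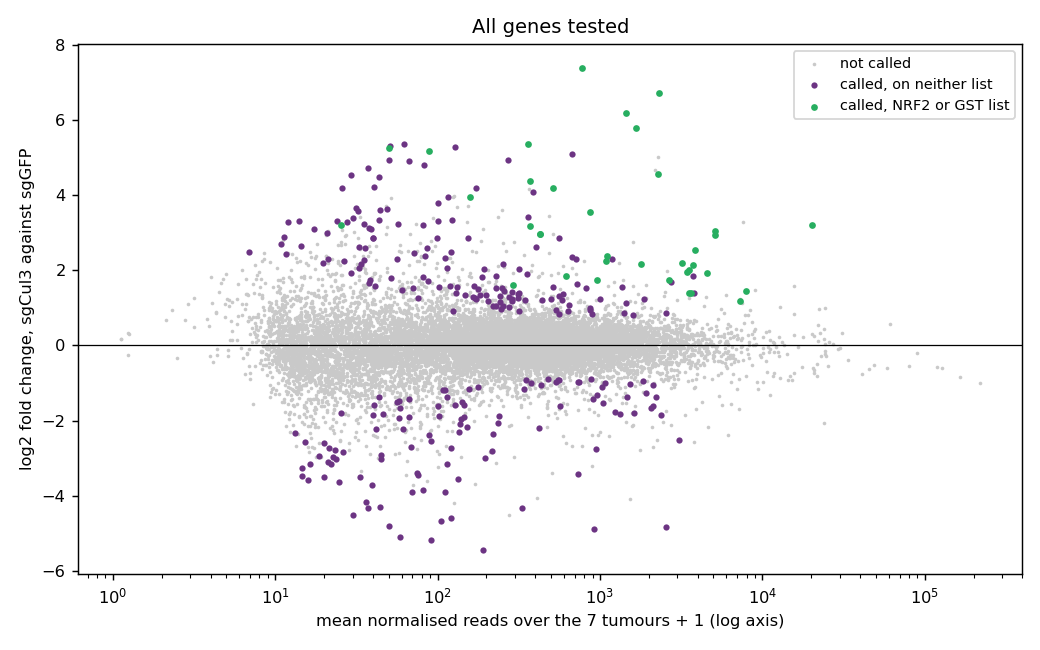
All 13045 genes tested, with the mean level over the 7 tumours on the horizontal axis (normalised reads plus 1, log axis) and the log2 fold change of sgCul3 against sgGFP on the vertical axis. Purple points are called genes on neither the NRF2 nor the glutathione S-transferase list (140 higher, 111 lower), green points the 36 called members of those lists, all of which lie above 0, and grey points the genes that were not called.

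The calls leaned on single tumours. The most extreme value among the sgCul3 tumours was in tumour 1 for 75 of the 140 higher genes, in tumour 2 for 25 and in tumour 3 for 40, and for 51, 20 and 40 of the 111 lower genes. Tumour 1 was also the one with the fewest reads on genes and the lowest Cul3. Without it, 46 genes were higher and 22 lower, and without sgCul3 tumour 2 the counts were 81 and 66. Without sgCul3 tumour 3 they were above those from all tumours, at 212 and 115. Leaving out sgGFP tumour 1, 2, 3 or 4 gave 114, 88, 75 or 96 higher and 91, 39, 34 or 48 lower genes. Under all alternatives that tested them, 39 higher genes and 22 lower genes passed, and of these 20 and 22 were on neither list. The genes of the next 2 paragraphs are among those 42.

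Among the higher genes that passed under every alternative were enzymes of steroid, bile acid and carbonyl metabolism. Akr1c19 (ENSMUSG00000071551.12, chromosome 13 of GRCm38 from 4228700 to 4252843), an aldo-keto reductase, had 847, 1118 and 1343 normalised reads in sgCul3 tumours 1 to 3, against 167, 180.3, 160.3 and 99.3 in sgGFP tumours 1 to 4. Every sgCul3 tumour stood far above every sgGFP tumour. Its log2 fold change was 2.85 ± 0.25 (SE; limma adjusted p = 0.000285), and since the aldo-keto reductases include close copies, reads may be split among them. Cyp7b1 (chromosome 3, 18071950 to 18243338), the oxysterol hydroxylase of the alternative pathway to bile acids, had 111, 147 and 79.8 in sgCul3 tumours and 2.02, 0, 3.54 and 1.79 in sgGFP tumours (4.95 ± 0.42, adjusted p = 0.000228). Cyp8b1 (chromosome 9, 121914356 to 121916305), which commits bile acids to cholic acid, had 64.9, 211 and 76.6 in sgCul3 against 10.8, 7.67, 11.5 and 7.16 in sgGFP tumours (3.22 ± 0.51, adjusted p = 0.0104). They were the only 2 of 22 tested genes of bile acid synthesis to pass with limma (9.09%, against 1.35% of all genes tested), and the list's median was -0.11. In sgKeap1 tumours 4 of the 22 were called higher than in sgGFP tumours and 0 lower, though the share over all genes there is not given here. In sgNrf2 tumours 5 of 23 were higher than in controls A and B and 1 lower.

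The same held for genes of the membrane, of stress and of transcription. Tspan8 (chromosome 10, 115816832 to 115849893), a tetraspanin of secretory epithelia, had 381, 191 and 1257 normalised reads in sgCul3 tumours and 20.2, 23.0, 9.74 and 5.37 in sgGFP tumours (4.93 ± 0.63, limma adjusted p = 0.0036). Anxa13 (chromosome 15, 58341471 to 58389244), an annexin of epithelial membranes, had 123, 363 and 658 in sgCul3 against 9.45, 13.0, 25.7 and 15.2 in sgGFP tumours (4.2 ± 0.60, adjusted p = 0.00609). In both genes tumour 3 was the highest. Hspb8 (chromosome 5, 116408491 to 116422864), a small heat shock protein that works with BAG3, had 901, 1016 and 538 in sgCul3 against 16.2, 21.5, 100.1 and 111 in sgGFP tumours (4.07 ± 0.59, adjusted p = 0.00723), and was the only 1 of 24 tested heat shock and cochaperone genes to pass with limma. Ddit4l (chromosome 3, 137621612 to 137628333), which restrains the kinase mTORC1, had 160.3, 62.0 and 87.6 in sgCul3 against 6.07, 5.37, 4.43 and 8.05 in sgGFP tumours (3.63 ± 0.39, adjusted p = 0.00109). It was likewise the only 1 of 26 genes of its list, on ATF4 and serine synthesis. Six4, a homeobox factor, had 43.4 to 137 in sgCul3 tumours and 5.40 to 13.4 in sgGFP tumours, and Bhlhe41, a repressor of the circadian clock, had 86.8 to 250.2 in sgCul3 against 9.74 to 29.9 in sgGFP tumours. Ces2c, a carboxylesterase, had 12.4 to 36.7 in sgCul3 against 0 to 1.77 in sgGFP tumours, at a level of few reads. Six4, Bhlhe41 and Ces2c were picked after their values were seen.

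**Figure D2:**
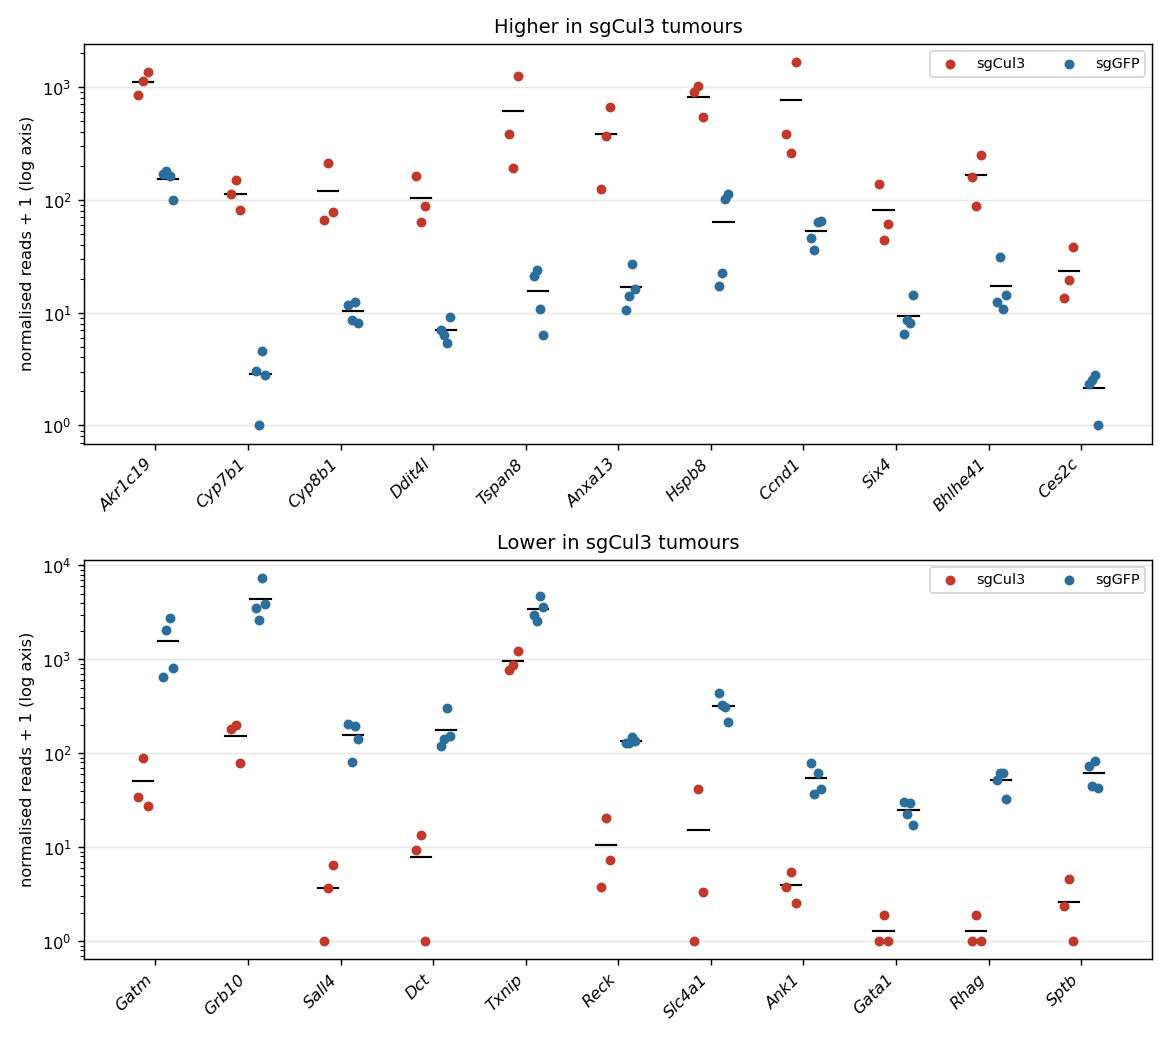
Levels of 11 higher and 11 lower genes that passed under all alternatives that tested them, as normalised reads plus 1 on a log axis, with sgCul3 tumours in red and sgGFP tumours in blue. Each point is 1 tumour in the order of its number and each black line the mean of a group. The groups do not overlap for any gene shown, which was so for all called genes on neither list.

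A short sequence that NRF2 and its small MAF partners bind, the antioxidant response element, was looked for in the promoters of the called genes. The core searched was TGACNNNGC on either strand, in RefSeq windows of build GRCm38.p6 that run from 250 bases before to 50 bases after a start. Windows were found for 9694 of the 13045 tested genes, and 16.9% of these genes held the core. It was in 22 of 102 higher genes on neither list (21.6%), in 8 of 74 lower genes (10.8%) and in 21 of 78 tested members of the NRF2 and glutathione S-transferase lists (26.9%). The stricter TGACTCAGC, which contains the AP-1 site TGACTCA, was in 0.557% of all windows' genes, in Ikbkg and Tbcel among the 102 higher genes on neither list (1.96%), in 0 of the 74 lower genes and in 5 of the 78 list members (6.41%). A match is a string of letters and shows no binding. The core with 1 letter less, TGANNNNGC, was in 47.7%, 54.9%, 52.7% and 61.5% of all genes, the 102, the 74 and the 78.

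The stretches that hold TGACTCAGC in called genes are shown first, since these are the letters that the fewest promoters carry, followed by those of Ddit4l and Cyp8b1, which hold TGACNNNGC but not TGACTCAGC and passed under every alternative. The letters run 5′ to 3′ on the strand of the gene, with the core in capitals, so that a core on the other strand appears as its reverse complement and starts with GC.
Htatip2 (GRCm38.p6, chr7:49759447-49759487, plus strand, core from base -49 of the start): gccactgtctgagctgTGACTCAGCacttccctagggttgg
Me1 (GRCm38.p6, chr9:86695896-86695936, minus strand, core from base -6 of the start): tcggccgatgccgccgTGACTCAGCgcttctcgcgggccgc
Pir (GRCm38.p6, chrX:164269201-164269241, plus strand, core from base -214 of the start): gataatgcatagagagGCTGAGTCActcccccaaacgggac
Ikbkg (GRCm38.p6, chrX:74424558-74424598, plus strand, core from base -38 of the start): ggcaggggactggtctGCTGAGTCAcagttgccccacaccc
Tbcel (GRCm38.p6, chr9:42461481-42461521, minus strand, core from base -77 of the start): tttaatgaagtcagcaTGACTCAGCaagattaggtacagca
Ddit4l (GRCm38.p6, chr3:137623610-137623650, plus strand, core from base -46 of the start): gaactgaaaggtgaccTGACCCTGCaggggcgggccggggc
Cyp8b1 (GRCm38.p6, chr9:121916432-121916472, minus strand, core from base -151 of the start): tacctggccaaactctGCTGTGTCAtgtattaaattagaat

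Those genes rose in sgCul3 tumours by different amounts. Pir, the iron-binding protein pirin and a known NRF2 target, had 806, 901 and 778 normalised reads in sgCul3 tumours and 49.3, 75.9, 159 and 200.5 in sgGFP tumours (2.95 ± 0.40, limma adjusted p = 0.00453). Htatip2, an oxidoreductase, had 1574, 1621 and 1457 in sgCul3 against 241, 374, 678 and 763 in sgGFP tumours (1.73, adjusted p = 0.0295). Me1, the malic enzyme that makes NADPH, had 783, 950.0 and 1371 in sgCul3 against 134, 422, 285 and 377 in sgGFP tumours (1.84, adjusted p = 0.0287). Tbcel, a tubulin chaperone-like protein, had 1123, 549 and 947 in sgCul3 against 321, 274, 470.3 and 413 in sgGFP tumours (1.21, adjusted p = 0.0483). Ikbkg, the NEMO subunit of the IKK complex, had 933, 879 and 781 in sgCul3 against 383, 429, 509 and 503 in sgGFP tumours (0.93, adjusted p = 0.0218), but it overlaps the NRF2 target G6pdx over 19712 bases on the opposite strand, and the sources used here do not say that strand was kept, so reads of the 2 genes may not have been told apart. The call of Tbcel ended without sgCul3 tumour 1 or 3 or sgGFP tumour 1, 2, 3 or 4 (adjusted p = 0.0701 to 0.214), of Ikbkg without sgCul3 tumour 1 or 2 or sgGFP tumour 2 (0.0614 to 0.115), of Htatip2 without sgCul3 tumour 1, 2 or 3 or sgGFP tumour 2 (0.0517 to 0.119) and of Me1 without sgCul3 tumour 1, 2 or 3 or sgGFP tumour 3 (0.064 to 0.0769). Other settings ended the calls of Tbcel, Htatip2 and Me1 (adjusted p = 0.0527 to 0.0872). Htatip2, Ikbkg, Pir and Tbcel were picked after their values and promoters were seen.

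Cyclin genes of the G1 phase and partners of theirs were among the higher genes. Of 23 tested G1 cyclins, kinases and inhibitors, 4 were higher (17.4%, against 1.35% of all genes tested) and 0 lower, with a list median of 0.24 against 0.01 over all genes. In sgKeap1 tumours, which share the sgGFP tumours, 4 of the 23 were called higher and 1 lower. In sgNrf2 tumours 2 of 23 were higher than in controls A and B and 0 lower. Calls on this list were thus not particular to sgCul3 tumours. Ccnd1 (chromosome 7, 144929931 to 144939925), cyclin D1, had 381, 259 and 1656 normalised reads in sgCul3 tumours 1 to 3, against 44.5, 34.5, 62.9 and 63.5 in sgGFP tumours 1 to 4 (3.41 ± 0.54, limma adjusted p = 0.0102). Tumour 3 had the most, and the call held under every alternative run. Cdkn2a (chromosome 4, 89274471 to 89294653), which encodes the inhibitors p16INK4a and p19ARF, had 155, 38.1 and 41.4 in sgCul3 against 4.72, 5.37, 3.54 and 8.95 in sgGFP tumours (3.13 ± 0.60, adjusted p = 0.0271), and here tumour 1 stood highest. Ccne1 (chromosome 7, 38097984 to 38107534), cyclin E1, whose protein is a substrate of CUL3, had 1149.5, 1371 and 1089 in sgCul3 against 479, 518, 741 and 693 in sgGFP tumours (1.0 ± 0.23, adjusted p = 0.0484). E2f8, an atypical E2F repressor, had 909, 673 and 654 in sgCul3 against 443, 318, 395 and 374 in sgGFP tumours (0.95 ± 0.21, adjusted p = 0.0454). The sgCul3 and sgGFP tumours did not overlap in any of the 4 genes, which was so in all 140 higher genes on neither list. The calls of Ccne1 and E2f8 ended without any 1 of the 7 tumours (adjusted p = 0.063 to 0.167 and 0.0536 to 0.211), and that of Cdkn2a without sgCul3 tumour 1 or sgGFP tumour 1, 2 or 3 (0.0504 to 0.115). Another test, scaling or filter ended the calls of Ccne1, Cdkn2a and E2f8 (adjusted p = 0.0502 to 0.0938), the tumour number as a block among them (0.0528 for Ccne1, 0.0556 for Cdkn2a and 0.0938 for E2f8).

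Cyclin E1 was the only 1 of 34 tested genes of other CUL3 substrates to pass with limma, and that list's median was 0.07. These are levels of transcripts, while CUL3 acts on the proteins, so they do not measure whether a substrate protein changed. In sgKeap1 tumours Ccne1 had 513, 579.7 and 823 normalised reads, a sgCul3 minus sgKeap1 difference of 0.93 ± 0.24 on the log2 scale that did not pass (limma adjusted p = 0.343). Genes of mitosis and DNA replication lay mostly above 0 without passing. In sgCul3 tumours 33 of 37 mitosis genes and 33 of 35 replication genes had a positive log2 fold change, with medians of 0.37 and 0.46, and 1 and 0 of them were called by limma. The mitosis list lay at 0.45, 0.25 and 0.32 in sgCul3 tumours and at 0.40, -0.15, -0.01 and -0.25 in sgGFP tumours 1 to 4, measured from the sgGFP mean. The replication list lay at 0.47, 0.55 and 0.37 in sgCul3 tumours and at 0.49, 0.10, -0.18 and -0.41 in sgGFP tumours. On both lists sgGFP tumour 1 lay within the range of the sgCul3 tumours, so that the groups overlapped. The 1 was Cdk1, the kinase that starts mitosis, with 3629.6, 3730.1 and 2961 normalised reads in sgCul3 against 2244, 2075, 1484 and 1776 in sgGFP tumours (0.87 ± 0.20, adjusted p = 0.0484). Bax, the pore-forming protein of apoptosis and the only 1 of 28 p53 targets to pass, had 2056, 1889 and 1716 in sgCul3 against 933, 1049, 953 and 1206 in sgGFP tumours (0.87 ± 0.18, adjusted p = 0.036). Cdk1 lost its call without sgCul3 tumour 1 or 2 or sgGFP tumour 1, 2, 3 or 4 (adjusted p = 0.0534 to 0.207) and Bax without sgCul3 tumour 1 or 2 or sgGFP tumour 1, 2 or 3 (0.0676 to 0.167). Other settings ended the calls of Cdk1 and Bax (adjusted p = 0.0507 to 0.10), the tumour number as a block among them (0.0888 for Cdk1 and 0.052 for Bax).

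The lists of BTB adaptors, genes of other CUL3 substrates, COPII coat, hedgehog and 26S proteasome had 0% to 2.94% of their genes called, against 2.20% of all genes tested. Other lists had more, with 17.4% of the G1 genes above and 4.17% of 24 MAPK feedback and RAS pathway genes, of which Dusp7 alone was called. Klhl23 (chromosome 2, 69821944 to 69836651), a BTB-Kelch protein, was the only 1 of 66 tested BTB adaptors to pass with limma, which is 1.52% of them. It had 202, 129 and 156 normalised reads in sgCul3 tumours and 39.1, 18.4, 32.8 and 15.2 in sgGFP tumours (2.6 ± 0.43, adjusted p = 0.0136, and 0.0835 without sgCul3 tumour 1). The median of the adaptors was 0.04, with 34 above and 32 below 0. Of 34 genes of the COPII coat and its TMED cargo receptors, Tmed6 alone passed with limma (2.94%), at 52.5, 128 and 110.2 in sgCul3 tumours against 1907, 1876, 562 and 466 in sgGFP tumours, and its call ended without sgCul3 tumour 1 or sgGFP tumour 2 (adjusted p = 0.0546 to 0.107). Hedgehog genes, whose GLI factors are marked by CUL3 with SPOP, gave 0 calls of 10 and a median of 0.56. The 26S proteasome gave 0 of 38 and 0.23.

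Further higher genes encode proteins of junctions, cell shape and signalling. Cldn3 (chromosome 5, 134986214 to 134987472), a tight junction claudin, had 339, 388 and 50.8 normalised reads in sgCul3 tumours and 12.1, 11.5, 30.1 and 18.8 in sgGFP tumours (3.34 ± 0.64, limma adjusted p = 0.0272), with tumour 3 well below the other two. Arhgap22 (chromosome 14, 33214026 to 33369934), which switches off RAC1, had 219.7, 113 and 291 in sgCul3 against 49.9, 17.6, 2.66 and 6.26 in sgGFP tumours (3.8 ± 0.70, adjusted p = 0.022). Spp1, the matrix protein osteopontin, had 1057, 1106 and 210.3 in sgCul3 against 81.6, 164, 121 and 64.4 in sgGFP tumours (2.61 ± 0.59, adjusted p = 0.0484), and was the only 1 of 39 collagens and matrix genes to pass. Gprc5b, an orphan receptor, had 124 to 336 in sgCul3 tumours and 16.1 to 72.2 in sgGFP tumours, and the sodium channel Scn8a had 74.4 to 349.6 in sgCul3 against 7.97 to 27.6 in sgGFP tumours. Tpm4, a tropomyosin and the only 1 of 41 actin and keratin genes to pass, had 954 to 1383 in sgCul3 against 506 to 681 in sgGFP tumours. Irs1, the insulin receptor substrate, had 321 to 448 in sgCul3 against 99.0 to 213 in sgGFP tumours, and Dusp7, a phosphatase of ERK, had 204 to 329 in sgCul3 against 85.0 to 132 in sgGFP tumours. The log2 fold changes were 2.48, 3.31, 0.93, 1.44 and 1.29 (adjusted p = 0.031, 0.0302, 0.0357, 0.0408 and 0.0423). Each of these 8 calls ended without sgCul3 tumour 1, at an adjusted p of 0.107 for Arhgap22, 0.131 for Cldn3, 0.150 for Scn8a, 0.157 for Gprc5b, 0.163 for Irs1, 0.172 for Tpm4, 0.202 for Dusp7 and 0.212 for Spp1. The tumours whose omission ended a call were sgCul3 tumour 1 or 3 or sgGFP tumour 4 for Arhgap22, sgCul3 tumour 1 or 2 or sgGFP tumour 1, 2 or 4 for Cldn3, sgCul3 tumour 1 or 3 or sgGFP tumour 1, 3 or 4 for Scn8a, sgCul3 tumour 1 or 2 or sgGFP tumour 2, 3 or 4 for Gprc5b, sgCul3 tumour 1, 2 or 3 or sgGFP tumour 1, 2 or 4 for Irs1, sgCul3 tumour 1 or 3 or sgGFP tumour 1, 2, 3 or 4 for Tpm4, sgCul3 tumour 1 or 2 or sgGFP tumour 2, 3 or 4 for Dusp7 and sgCul3 tumour 1 or 2 or sgGFP tumour 1, 2, 3 or 4 for Spp1, with lower adjusted p than without sgCul3 tumour 1. Another test, scaling or filter ended the calls of Arhgap22, Cldn3, Gprc5b, Irs1, Tpm4, Dusp7 and Spp1 (adjusted p = 0.0503 to 0.10), the tumour number as a block among them (0.0556 for Cldn3 and 0.0763 for Tpm4).

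Acute phase and interferon genes were uneven between the sgCul3 tumours. Orm2 (chromosome 4, 63362449 to 63365878), an orosomucoid, had 73.2, 4183 and 396 normalised reads in sgCul3 tumours 1 to 3, against 8.77, 13.8, 17.7 and 11.6 in sgGFP tumours, so that tumour 2 was far above the others. The log2 fold change was 5.1 ± 1.10 (limma adjusted p = 0.0424), the call ended without sgCul3 tumour 2 or 3 or sgGFP tumour 1, 2, 3 or 4 (adjusted p = 0.0652 to 0.0897), and the orosomucoids are near-identical copies. With the 2 groups tested alone its adjusted p was 0.0691. The median of 29 acute phase genes was 0.04, and lay at -0.49, 1.61 and -0.63 in sgCul3 tumours 1 to 3, measured from the sgGFP mean. Mx1 (chromosome 16, 97447035 to 97462907), an interferon-induced GTPase, had 474, 232 and 54.0 in sgCul3 against 12.1, 25.3, 5.31 and 5.37 in sgGFP tumours (3.94 ± 0.68, adjusted p = 0.0175; 0.0556 to 0.0832 without sgCul3 tumour 1 or 2 or sgGFP tumour 3). It was the only 1 of 38 interferon response genes to pass with limma, while 30 of the 38 had a positive log2 fold change and the median was 0.78.

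A few genes of fat burning fell. Of 40 tested genes of fatty acid oxidation and PPAR alpha, 3 were lower (7.5%, against 0.851% of all genes tested) and 0 higher, and the list median was -0.61. Measured from the sgGFP mean, the list lay at -1.15, -0.17 and -0.51 in sgCul3 tumours 1 to 3 and at -0.34, 0.16, 0.17 and 0.08 in sgGFP tumours 1 to 4, so that the groups overlapped. The sgKeap1 tumours, which share the sgGFP tumours, lay at -0.39, 0.53 and -0.24, with 2 of the genes called higher and 3 lower than in sgGFP tumours. Between sgCul3 and sgKeap1 tumours 0 of the 40 were called by limma. Ppara (chromosome 15, 85734983 to 85802819), the receptor that switches on fatty acid oxidation, had 31.8, 63.8 and 86.0 normalised reads in sgCul3 tumours 1 to 3, against 130.2, 204, 229 and 149 in sgGFP tumours 1 to 4 (-1.6 ± 0.34, limma adjusted p = 0.0423). Cpt1a (chromosome 19, 3322334 to 3385733), which starts the transport of fatty acids into mitochondria, had 591, 989 and 1306 in sgCul3 against 4417, 3413, 2594 and 1571 in sgGFP tumours (-1.61 ± 0.35, adjusted p = 0.0445). Creb3l3 (chromosome 10, 81084324 to 81098874), a liver factor that works with PPAR alpha, had 832, 1618 and 1095 in sgCul3 against 2766, 3948, 2703 and 2594 in sgGFP tumours (-1.38 ± 0.28, adjusted p = 0.0337). In all 3 genes tumour 1 had the least. The calls ended without sgCul3 tumour 1 or 2 or sgGFP tumour 2, 3 or 4 for Ppara (0.0718 to 0.162), sgCul3 tumour 1 or 2 or sgGFP tumour 1, 2 or 3 for Cpt1a (0.0698 to 0.197) and sgCul3 tumour 1 or 3 or sgGFP tumour 1, 2, 3 or 4 for Creb3l3 (0.054 to 0.163). Other settings ended the calls of Ppara, Cpt1a and Creb3l3 (adjusted p = 0.0503 to 0.0841).

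Among 31 genes of lipid droplets and lipases, Plin5 and Angptl4 were lower and Fitm1 higher (9.68% called, against 2.20% of all genes tested). Plin5, which ties droplets to mitochondria, had 134, 304 and 168 normalised reads in sgCul3 tumours and 489, 1285, 2406 and 1869.6 in sgGFP tumours (-2.76, limma adjusted p = 0.0242). Angptl4, an inhibitor of lipoprotein lipase, had 460.1, 702 and 693 in sgCul3 against 1211, 1112, 1422 and 1578 in sgGFP tumours (-1.12, adjusted p = 0.0294). Fitm1, which helps droplets form, had 670.1, 618 and 367 in sgCul3 against 199, 96.7, 85.9 and 168 in sgGFP tumours (2.03 ± 0.32, adjusted p = 0.0102). Of 27 lipogenesis genes, 7.41% were called, against 2.20% of all genes tested. Me1 (above) was higher, and Acacb, the mitochondrial acetyl-CoA carboxylase, was lower at 37.3, 56.7 and 69.6 in sgCul3 against 133, 158, 526 and 543 in sgGFP tumours (-2.36 ± 0.54, adjusted p = 0.0491). Acacb lost its call without sgCul3 tumour 1, 2 or 3 or sgGFP tumour 2, 3 or 4 (adjusted p = 0.061 to 0.21), Plin5 without sgCul3 tumour 1 or 3 or sgGFP tumour 2, 3 or 4 (0.0514 to 0.115), Angptl4 without sgCul3 tumour 1 or 2 or sgGFP tumour 3 or 4 (0.0546 to 0.14) and Fitm1 without sgCul3 tumour 1 (0.0663). Another test, scaling or filter ended the calls of Acacb and Angptl4 (adjusted p = 0.0518 to 0.0908), the tumour number as a block among them (0.0908 for Acacb and 0.0606 for Angptl4).

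A few genes of creatine and amino acid metabolism also fell. Of 50 tested genes of the urea cycle, creatine synthesis and amino acid breakdown, 4 were lower (8.0%, against 0.851% of all genes tested) and 0 higher, and the median was -0.51. In sgKeap1 tumours 5 of the 50 were lower than in sgGFP tumours and 0 higher, with a median of -0.29. In sgNrf2 tumours 8 of 50 were lower than in controls A and B, where 2.51% of all genes were, and 1 was higher. The median there was -0.95. Measured from the sgGFP mean, the list lay at -0.95, -0.18 and -0.59 in sgCul3 tumours 1 to 3 and at -0.84, -0.11, 0.53 and 0.38 in sgGFP tumours 1 to 4, so that sgGFP tumour 1 lay below sgCul3 tumours 2 and 3. The median hepatocyte marker, given above, was also lowest in tumour 1 of each group, and the part of hepatocyte content in these values was not tested. Gatm (ENSMUSG00000027199.14, chromosome 2 of GRCm38 from 122594467 to 122611303), which makes the precursor of creatine, had 33.2, 87.7 and 26.6 normalised reads in sgCul3 tumours 1 to 3, against 649.7, 2029, 2781 and 800.1 in sgGFP tumours 1 to 4. The highest sgCul3 tumour lay far below the lowest sgGFP tumour, and the log2 fold change, -4.87 ± 0.65 (limma adjusted p = 0.0045), held under every alternative. Ftcd, of histidine breakdown, had 796, 1066 and 845 in sgCul3 against 2073, 3758, 2398 and 3484 in sgGFP tumours (-1.66 ± 0.27, adjusted p = 0.0132, and 0.0771 without sgCul3 tumour 1). Got1, the cytosolic aspartate aminotransferase, had 525, 813 and 956 in sgCul3 against 1354, 1503, 2949 and 2219 in sgGFP tumours (-1.36, adjusted p = 0.0446). Slc25a13, the aspartate-glutamate carrier citrin, had 689, 1317 and 1217 in sgCul3 against 2168, 2364, 3594 and 2089.8 in sgGFP tumours (-1.27, adjusted p = 0.0493). Got1 and citrin both belong to the malate-aspartate shuttle. Aldoc, the only 1 of 28 glycolysis genes to pass, had 49.7, 83.3 and 36.7 in sgCul3 against 149.8, 247, 258 and 189 in sgGFP tumours (-1.91, adjusted p = 0.0463). The calls of Slc25a13 and Aldoc ended without any 1 of the 7 tumours (0.0599 to 0.214 and 0.0534 to 0.177), and that of Got1 without sgCul3 tumour 1 or 2 or sgGFP tumour 2, 3 or 4 (0.0663 to 0.202). Other settings ended the calls of Got1, Slc25a13 and Aldoc (adjusted p = 0.0502 to 0.0908), the tumour number as a block among them (0.065 for Got1 and 0.0908 for Aldoc).

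Growth and oncofetal genes were among the strongest of the lower ones. Grb10 (ENSMUSG00000020176.17, chromosome 11 of GRCm38 from 11930508 to 12038683), an imprinted adaptor that restrains insulin and IGF receptors, had 178, 199 and 77.4 normalised reads in sgCul3 tumours 1 to 3, against 3494, 2639.8, 7358 and 3911 in sgGFP tumours 1 to 4. Its log2 fold change was -4.83 ± 0.37 (limma adjusted p = 0.000122). Of 30 tested imprinted genes it alone passed, with a list median of -0.03. Sall4 (chromosome 2, 168748332 to 168767943), a zinc finger factor of fetal liver and stem cells, had 0, 2.66 and 5.47 in sgCul3 tumours, which is 10 reads over the 3 libraries, and 206, 80.6, 196 and 139.6 in sgGFP tumours (-5.17 ± 0.59, adjusted p = 0.00178). Cd24a, a surface protein of progenitor cells, had 44.2, 50.5 and 6.26 in sgCul3 against 219, 229, 190.4 and 105 in sgGFP tumours (-2.73, adjusted p = 0.0411; 0.0529 to 0.102 without sgCul3 tumour 1 or sgGFP tumour 1, 2, 3 or 4). These 2 were the called members among 25 oncofetal genes (8% lower, against 0.851% of all genes tested), whose median was -0.32. Grb10 and Sall4 passed under all alternatives run. Another test, scaling or filter ended the call of Cd24a (adjusted p = 0.0513 to 0.0822).

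Further lower genes covered several functions. Txnip, which binds thioredoxin and limits glucose uptake, had 778, 865 and 1224 normalised reads in sgCul3 tumours and 2989, 2551, 4766 and 3575 in sgGFP tumours (-1.85 ± 0.26, limma adjusted p = 0.00609). Reck, an inhibitor of matrix proteases, had 2.76, 19.5 and 6.26 in sgCul3 against 129, 127, 148 and 134 in sgGFP tumours (-3.85 ± 0.57, adjusted p = 0.00738). Dct, dopachrome tautomerase of the pigment pathway, had 8.29, 12.4 and 0 in sgCul3 against 118, 141, 302 and 151 in sgGFP tumours (-4.66 ± 0.72, adjusted p = 0.00929). All 3 passed under each alternative run, and Txnip and Reck were picked after their values were seen. Limch1, which binds actin and myosin, had 1.38, 4.43 and 3.91 in sgCul3 against 20.9, 69.8, 298 and 439 in sgGFP tumours, where they spread widely (-4.59, adjusted p = 0.0276). Lrp11, a receptor-like protein, had 19.3, 5.32 and 39.9 in sgCul3 against 138, 252, 254 and 80.5 in sgGFP tumours (-3.15, adjusted p = 0.0237). Slc36a2, an amino acid carrier, had 38.7, 33.7 and 1.56 in sgCul3 against 334, 138, 223 and 161 in sgGFP tumours (-3.56, adjusted p = 0.0446), and Slc4a9, an anion carrier, had 26.3, 26.6 and 21.9 in sgCul3 against 544, 309, 767 and 618 in sgGFP tumours (-4.31, adjusted p = 0.0367). The calls of the last 4 ended without sgCul3 tumour 1 or 2 or sgGFP tumour 2, 3 or 4 for Limch1 (0.0523 to 0.12), sgCul3 tumour 1 or 2 or sgGFP tumour 2 or 3 for Lrp11 (0.0572 to 0.0898), sgCul3 tumour 1 or 2 or sgGFP tumour 1, 2, 3 or 4 for Slc36a2 (0.055 to 0.111) and any 1 of the 7 tumours for Slc4a9 (0.0603 to 0.127). Other settings ended the calls of Limch1, Lrp11, Slc36a2 and Slc4a9 (adjusted p = 0.0521 to 0.0763), the tumour number as a block among them (0.065 for Slc36a2).

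Genes of red cell precursors were the cell type markers most often called. Of 18 tested erythroid markers, 11 were lower (61.1%, against 0.851% of all genes tested) and 0 higher, with a median of -3.17. The fall was not particular to sgCul3 tumours. In sgKeap1 tumours, which share the sgGFP tumours, 13 of the 18 were lower and 0 higher by limma, with a median of -3.57. In sgNrf2 tumours against controls A and B, 11 of 18 were lower, against 2.51% of all genes tested there, and 0 higher, with a median of -3.72. The authors' added 1 was still in the tested values of the first table only, so these medians stand on unlike floors. Rhag (chromosome 17, 40811126 to 40840754), the Rh glycoprotein, had 0, 0.886 and 0 normalised reads in sgCul3 tumours 1 to 3, against 51.3, 60.6, 60.2 and 31.3 in sgGFP tumours 1 to 4. That is 1 read against 258, a ratio of 0.00623 with an exact 95% interval of 0.000157 to 0.0350 for counting error. Gata1 (chromosome X, 7959260 to 7978071), the erythroid master regulator, had 0, 0.886 and 0 in sgCul3 against 29.0, 21.5, 28.3 and 16.1 in sgGFP tumours, or 1 read against 121, a ratio of 0.0133 (0.000334 to 0.0754). Slc4a1 (chromosome 11, 102348824 to 102366203), the band 3 anion exchanger, had 0, 40.8 and 2.35 in sgCul3 against 432, 328, 306 and 214 in sgGFP tumours (-5.44 ± 0.83, limma adjusted p = 0.00925). Ank1, ankyrin of the red cell skeleton, had 2.76, 4.43 and 1.56 in sgCul3 against 77.6, 36.1, 61.1 and 41.2 in sgGFP tumours (-3.49 ± 0.46, adjusted p = 0.00446), and Sptb, beta spectrin, had 1.38, 3.54 and 0 in sgCul3 against 72.9, 43.7, 82.4 and 42.1 in sgGFP tumours (-4.16 ± 0.55, adjusted p = 0.00446). Rhag and Gata1 had limma adjusted p of 0.000798 and 0.00485, and the 5 genes passed under every alternative run. The globins Hbb-bs and Hba-a1 had changes of -2.16 and -2.38 that missed the threshold (adjusted p = 0.230 and 0.227), and Tfrc, the transferrin receptor, which other dividing cells also use, had one of 0.17. The summed level of the 18 markers, in which Hbb-bs and Tfrc have the highest means, was 7526 to 19656 in sgCul3 tumours and 10938 to 20880 in sgGFP tumours, so the groups overlapped.

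Other cell types moved with the groups to different degrees. Of 22 endothelial markers, 2 were lower (9.09%, against 0.851% of all genes tested) and 0 higher, with a median of -0.65. Their summed level was 1188 to 2198 in sgCul3 tumours and 2230 to 2788 in sgGFP tumours, without overlap. Over the 20 markers not called it was 1171 to 2156 in sgCul3 tumours and 2093 to 2618 in sgGFP tumours, where the groups overlapped. Lyve1, of liver sinusoids, had 1.38, 22.2 and 9.38 normalised reads in sgCul3 tumours and 247, 102, 84.1 and 53.7 in sgGFP tumours (-3.44 ± 0.67, limma adjusted p = 0.0281; 0.0533 to 0.107 without sgCul3 tumour 1 or sgGFP tumour 1, 2 or 3). Vwf, the von Willebrand factor, had 9.67, 19.5 and 7.04 in sgCul3 against 66.8, 35.3, 85.9 and 62.6 in sgGFP tumours (-2.23, adjusted p = 0.0493; 0.0634 to 0.194 without any 1 of the 7 tumours). Of 12 tested cholangiocyte and progenitor markers, Tspan8 and Spp1 were higher (16.7%, against 1.35% of all genes tested). The sum over the list was 2047 to 2251 in sgCul3 tumours against 1058 to 1399 in sgGFP tumours, again without overlap. The summed level of the other 13 listed markers went the other way, at 812, 751 and 669 in sgCul3 tumours and 1297, 871, 1052 and 1235 in sgGFP tumours. Tspan8 and Spp1 alone thus made the sum over the list higher. Counted singly, 9 of the 12 tested markers had a positive log2 fold change and 3 a negative one. The list median, measured from the sgGFP mean, lay at 1.60, 1.16 and 0.11 in sgCul3 tumours and at 0.63, 0.73, -0.37 and -1.05 in sgGFP tumours, where the groups overlapped. Krt7 and Krt19, the biliary keratins, had log2 fold changes of 0.01 and 0.37 (adjusted p = 0.996 and 0.896). Neutrophil markers gave 0 calls of 16 with limma and a median of -1.92, with -2.21, -0.29 and -3.46 in sgCul3 tumours 1 to 3 from the sgGFP mean. The sgGFP tumours 1 to 4 lay at -0.05, 1.21, -0.88 and -0.14, so that the groups overlapped. In sgKeap1 tumours 11 of the 16 were called lower than in sgGFP tumours, with a median of -3.29, but the share over all genes there is not given here. In sgNrf2 tumours 5 of 17 were called lower than in controls A and B, against 2.51% of all genes tested there, with a median of -4.08. Macrophage markers gave 0 of 19 and a median of 0.18. Of 17 stellate and fibroblast markers, Rgs5, of pericytes, alone passed, at 453, 442 and 432 in sgCul3 against 175, 146, 228 and 127 in sgGFP tumours (1.41, adjusted p = 0.0424; 0.0586 to 0.164 without any 1 of the 7 tumours). Another test, scaling or filter ended the calls of Lyve1, Vwf and Rgs5 (adjusted p = 0.0505 to 0.0938), the tumour number as a block among them (0.0938 for Vwf and 0.0938 for Rgs5). The part of these cells in the other results was not tested.

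**Figure D3:**
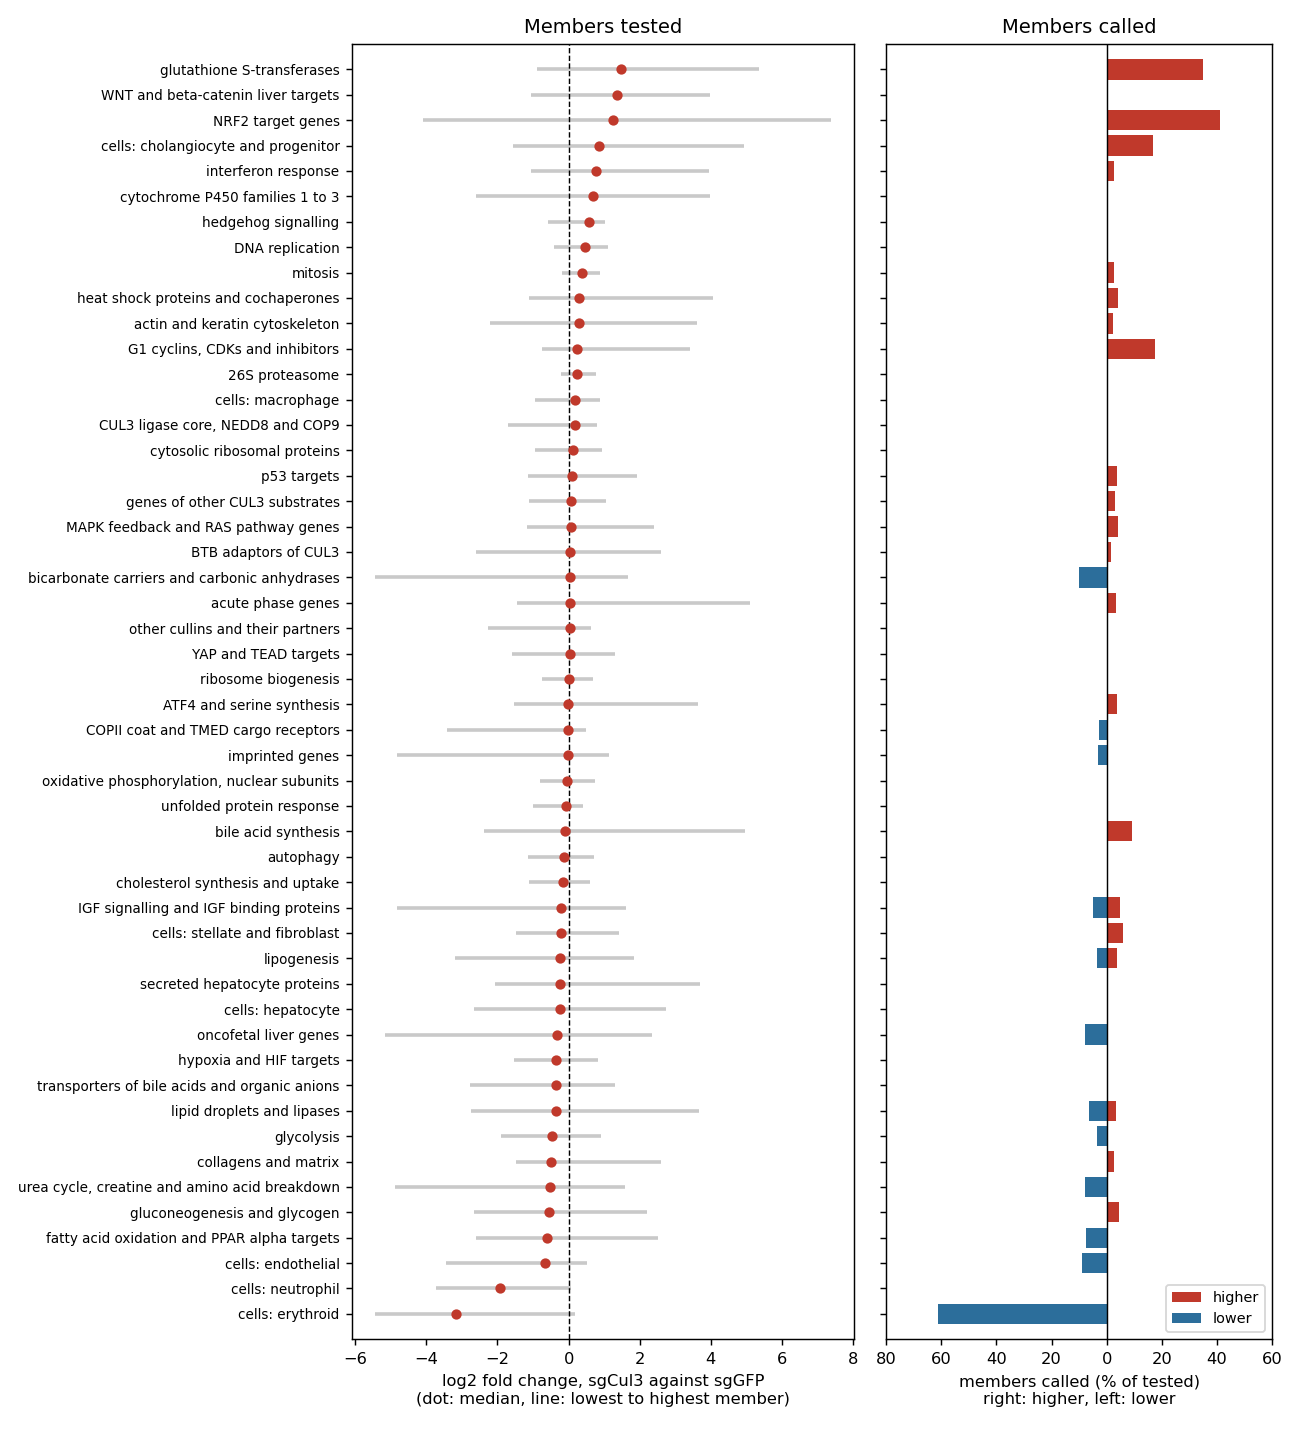
Most gene lists with at least 10 tested members, ordered by the median log2 fold change of sgCul3 against sgGFP (left, red dots, with grey lines from the lowest to the highest member and a dashed line at the median of all genes, 0.01) and the share of tested members called higher (right, red bars) or lower (right, blue bars). NRF2 targets and glutathione S-transferases have the highest shares called higher and erythroid markers the highest share called lower (11 of 18), while many lists off 0, such as the neutrophil list at -1.92, have no called member.

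Several lists stood off 0 with no member called. The WNT and beta-catenin targets of the liver had a median of 1.37 over 17 tested genes, yet lay at -0.46, 1.85 and 0.95 in sgCul3 tumours 1 to 3 from the sgGFP mean, and 0 passed with limma. Cytochromes P450 of families 1 to 3 had a median of 0.70 over 40 genes and 0 calls, with tumour 2 the highest as given above. Genes of hypoxia had a median of -0.35 over 25, and secreted hepatocyte proteins one of -0.24 over 61, with 0 calls each. Ribosome biogenesis, cytosolic ribosomal proteins and nuclear subunits of oxidative phosphorylation had medians of 0.00, 0.13 and -0.06 over 37, 67 and 72 genes, and again 0 calls.

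In sgKeap1 tumours the adaptor for NRF2 was targeted in place of the scaffold, so the sgCul3 and sgKeap1 tumours were compared with each other. Of the 13045 genes, 4 were higher and 4 lower in sgCul3 than in sgKeap1 tumours with limma (0.0307% in each direction, 0.0613% in all), 1315 had an unadjusted p under 0.05, and 0 genes were called in the same direction against both sgGFP and sgKeap1. Of the 140 higher and 111 lower genes on neither list, 0 were called here. Their sgCul3 minus sgKeap1 difference had the same sign as the change from sgGFP for 72 of the 140 and 66 of the 111. The others were as far from sgGFP or farther in sgKeap1 tumours. The 8 calls became 0 without sgKeap1 tumour 3, 1 without sgCul3 tumour 1, 2 without sgKeap1 tumour 1 and 4 without sgCul3 tumour 3. Among genes with the same sign, Tspan8 had 134, 64.9 and 159 normalised reads in sgKeap1 tumours, a difference of 2.0 ± 0.68 (adjusted p = 0.434), and Gatm had 423, 93.2 and 378, a difference of -2.47 ± 0.69 (adjusted p = 0.363). The summed level of the hepatocyte markers was 163050 to 1293700 in sgKeap1 tumours, with tumour 2 far above all others of the table. DESeq2 called Tspan8 and Gatm (adjusted p = 0.0486 and 0.0155). With errors of this size a p that misses the threshold does not show that the tumours were alike.

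In all 8 genes that differed, the sgKeap1 tumours did not overlap with either the sgCul3 or the sgGFP tumours. Bsn (chromosome 9, 108096022 to 108190384), the synaptic scaffold bassoon, had 750.2, 452 and 525 normalised reads in sgCul3 tumours, 98.1, 62.8 and 77.9 in sgKeap1 tumours and 486, 390.5, 552 and 626 in sgGFP tumours. Its sgCul3 minus sgKeap1 difference was 2.81 ± 0.27 on the log2 scale (limma adjusted p = 0.00537). Map2, of neuronal microtubules, had 218, 259.7 and 102 in sgCul3 tumours, 17.2, 16.2 and 23.1 in sgKeap1 tumours and 459, 299, 683 and 503 in sgGFP tumours (3.14 ± 0.39, adjusted p = 0.0147). Glipr2, a Golgi-associated protein, had 1130.2, 762 and 914 in sgCul3 tumours, 342, 217 and 281 in sgKeap1 tumours and 861, 885, 899 and 916 in sgGFP tumours (1.74 ± 0.21, adjusted p = 0.0147). Fam169a, of the nuclear envelope, had 123 to 259 in sgCul3 tumours, 15.5 to 34.5 in sgKeap1 tumours and 178 to 354 in sgGFP tumours (2.77 ± 0.39, adjusted p = 0.0302). These 4 were higher in sgCul3 than in sgKeap1 tumours.

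The other 4 were lower. Kitl (chromosome 10, 100015630 to 100100416), the ligand of the KIT receptor, had 198, 196 and 134 normalised reads in sgCul3 tumours, 684, 598 and 574 in sgKeap1 tumours and 151, 166, 149.7 and 154 in sgGFP tumours (-1.82 ± 0.21 for sgCul3 minus sgKeap1, limma adjusted p = 0.0141). Rec8, a meiotic cohesin, had 20.7, 43.4 and 14.1 in sgCul3 tumours, 346, 259 and 205 in sgKeap1 tumours and 35.1, 26.9, 27.5 and 27.7 in sgGFP tumours (-3.38 ± 0.40, adjusted p = 0.0141). Heph, the iron oxidase hephaestin, had 11.1, 36.3 and 3.91 in sgCul3 tumours, 279, 564 and 559.9 in sgKeap1 tumours and 5.40, 3.84, 15.1 and 2.68 in sgGFP tumours (-4.96 ± 0.68, adjusted p = 0.0289). Ugt8a, the galactosyltransferase of myelin lipids, had 3 reads over the sgCul3 tumours and 184 over the sgKeap1 tumours, with 9 over the sgGFP tumours, and a sgCul3 to sgKeap1 ratio of 0.0126 with an exact 95% interval of 0.00256 to 0.0373 for counting error (adjusted p = 0.0284). None of the 8 was called between sgCul3 and sgGFP tumours by limma, where the differences ran from -1.37 for Map2 to 0.91 for Heph. With sgCul3 and sgKeap1 tested alone 0 genes passed, and without sgKeap1 tumour 3 all 8 lost their call (0.0587 for Bsn and 0.0821 to 0.212 for the other 7). Without sgCul3 tumour 1, all but Bsn did (0.0860 to 0.129). Tumours whose omission ended a call were sgCul3 tumour 1 or sgKeap1 tumour 1 or 3 for Rec8, sgCul3 tumour 1 or sgKeap1 tumour 1 or 3 for Kitl, sgCul3 tumour 1 or 3 or sgKeap1 tumour 3 for Glipr2, sgCul3 tumour 1 or 2 or sgKeap1 tumour 1, 2 or 3 for Map2, sgCul3 tumour 1 or 3 or sgKeap1 tumour 1, 2 or 3 for Heph, sgCul3 tumour 1, 2 or 3 or sgKeap1 tumour 1 or 3 for Ugt8a and sgCul3 tumour 1 or 3 or sgKeap1 tumour 1, 2 or 3 for Fam169a. Equal totals ended the calls of Kitl (adjusted p = 0.0959) and Glipr2 (0.0511), and edgeR those of Heph and Fam169a (0.11 and 0.053). A mean of at least 50 also ended the call of Heph (0.069).

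**Figure D4:**
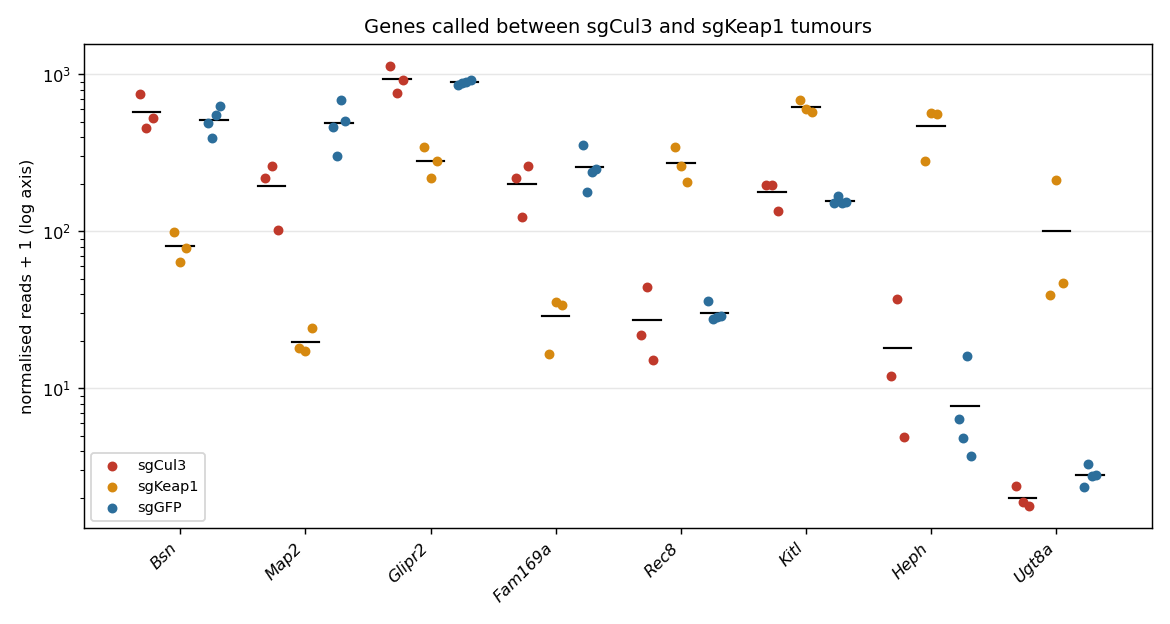
Levels of the 8 genes called between sgCul3 and sgKeap1 tumours, as normalised reads plus 1 on a log axis, with sgCul3 tumours in red, sgKeap1 tumours in orange and sgGFP tumours in blue. Points are single tumours and black lines group means, and in each gene the sgKeap1 tumours stand apart from both other groups.

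Values of the 2 sgNrf2 tumours are given only beside the others, since their controls repeat 2 of the sgGFP tumours. NRF2 target genes rose in these tumours, in which the ETGE motif was targeted. Of 69 tested, limma called 27 higher than in controls A and B and 0 lower, with a median log2 fold change of 1.345. Akr1c19 had 6571 and 3895 normalised reads in the sgNrf2 tumours, against 367 and 277 in the controls. Ccnd1 had 1471 and 2228 in sgNrf2 tumours against 51.8 and 105 in controls, and Anxa13 1358 and 2035 in sgNrf2 tumours against 28.0 and 35.4 in controls. Gatm had 96.4 and 149 in sgNrf2 tumours against 3121 and 1893 in controls, Grb10 292 and 1117 in sgNrf2 tumours against 5248 and 10179 in controls, and Sall4 0 and 0 in sgNrf2 tumours against 185 and 386 in controls. In the first 3 genes both sgNrf2 tumours lay above both controls, and in the last 3 below them. Ppara had 396 and 334 in sgNrf2 tumours against 377 and 227 in controls and Cpt1a 5552 and 7035 in sgNrf2 tumours against 7350.3 and 3542 in controls, so that both genes overlapped. Their list did not stand still, however. Of 42 tested genes of fatty acid oxidation and PPAR alpha, limma called 0 higher and 7 lower in sgNrf2 tumours than in controls, with a median of -0.47. Of 13989 genes tested there, limma called 266 higher (1.90%) and 351 lower (2.51%), 4.41% in all. Both directions together gave 3 and 46 calls without sgNrf2 tumour A or B and 3383 and 364 without control A or B, with the lone library of a group assumed to vary like the others.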

How the data were processed

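RNA of whole liver tumours was sequenced after extraction with a Qiagen kit and preparation with an Illumina TruSeq kit, per the labels, which do not say that strand was kept. Each deposited value is a signal, HTSeq gene counts that the authors scaled with DESeq per the submitters' processing notes, which also name Picard and mm10. The authors had added 1 to every value of the first table. The sources used here name no aligner, annotation release or tool version. The first table holds 16821 genes (16820 in its header), the second 16095 and 4 entries that name no gene. Reads were recovered as whole multiples of 1 step per library, within 0.1 reads. The 7 tumours had 6333025 to 12008223 reads on genes, and intervals and limits cover counting error only.

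The labels gave the groups. The main test was limma 3.58.1 in R 4.3.3, two-sided and with its trend option, for genes whose mean deposited value reached 10. It used log2 values after a pseudocount of 1 on the deposited values. Those of the first table still held the authors' added 1, while none had been added in the second. A gene was called when its p, adjusted by Benjamini and Hochberg over all genes tested, was under 0.05. Fold changes are on this log2 scale, which understates those of low genes, more so in the first table. All 10 libraries of the first table entered 1 fit, and the tables were tested apart. The share of all genes called between sgKeap1 and sgGFP tumours is not given here, so list counts of that comparison stand without it. Every adjusted p is limma's unless edgeR or DESeq2 is named. The code of the test was run on simulated counts with known changes, drawn gene by gene with the same dispersion for all genes. Such data lack the differences between tumours seen here, so the run does not vouch for the calls.

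Alternatives were a pseudocount of 5, the added 1 removed, leaving low genes in, requiring a mean of at least 50, equal totals, quantile normalization, each library left out, the 2 groups alone, a block for the tumour number, and, on the recovered reads, DESeq2 1.42.0 and the quasi-likelihood test of edgeR 4.0.16 with TMM scaling. Deviations of sgCul3 and sgGFP tumours 1 to 3 from their group means correlated at 0.164, 0.175 and 0.314 for the same number. Each was over 0.1, so the block treated equal numbers as pairs, on the evidence of the data alone. The main test paired no tumours, and correlations of this size do not show that the tumours were pairs. The block leaves out sgGFP tumour 4, which has no partner.

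The comparison, the 54 gene lists and the named genes were chosen with earlier results of these data known. The rule names the 12 genes with the largest change in each direction between sgCul3 and sgGFP, and the 8 between sgCul3 and sgKeap1, among called genes with a mean of at least 100 and groups that do not overlap, and up to 4 members per list. Not all 230 genes it names are described. Outside it, Htatip2, Ikbkg, Pir, Tbcel, Ugt8a, Txnip, Reck, Six4, Bhlhe41 and Ces2c were named after their values were seen. Gene coordinates come from GENCODE M21 (GRCm38), and promoter windows and sequences those of RefSeq on GRCm38.p6. Since strand may not have been kept, reads of Ccnd1 and LTO1 (1771 shared bases on opposite strands), E2f8 and Gm2788 (3639), Keap1 and Gm16754 (3317) and Fam169a and Nsa2 (1590) may not have been told apart, among others. Results for 1 gene and 2 lists are not reported here.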

Additional observations from a re-analysis of the deposited data

Results flagged for a closer look

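In 8 genes the sgCul3 and sgKeap1 tumours differed by a limma test of the difference itself, in log2 units of sgCul3 minus sgKeap1. The differences were 2.81 for Bsn (adjusted p = 0.00537), 3.14 for Map2 (0.0147), 1.74 for Glipr2 (0.0147) and 2.77 for Fam169a (0.0302), each higher in all 3 sgCul3 tumours than in all 3 sgKeap1 tumours. They were -3.38 for Rec8 (0.0141), -1.82 for Kitl (0.0141), -4.96 for Heph (0.0289) and -4.64 for Ugt8a (0.0284), each lower in all 3 sgCul3 tumours. Their causes were not tested.

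A gap within the 4 sgGFP tumours stood out in 2 genes. Creb3l3 had 3948 normalised reads in sgGFP tumour 2, against 2594 to 2766 in the other sgGFP tumours, a gap of 0.847 of the range on the log2 scale. Rec8 had 35.1 in sgGFP tumour 1, against 26.9 to 27.7 in the others, a gap of 0.879 of the range on the log2 scale. Both gaps exceed Dixon's critical value for 4 samples, which chance exceeds in about 1 in 20 groups. The text describes 68 genes named by the rule and 10 others, so a few such gaps can arise by chance.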

How the results depend on the processing

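The counts for sgCul3 against sgGFP (176 higher, 111 lower) were 115 and 47 with a mean of at least 50, which tests fewer genes, 92 and 64 with the 2 groups alone, 479 and 447 with DESeq2, and 46 to 212 and 22 to 115 without 1 library. With the tumour number as a block they were 146 and 86, and calls lost under it are given beside the genes. Of the 287 calls, 185 were shared with the block and 286 with DESeq2, and 0 of the shared calls turned direction in any alternative run. For sgCul3 against sgKeap1 (4 and 4), DESeq2 gave 40 and 64, the 2 groups alone 0 and 0, a mean of at least 50 gave 2 lower, and leaving out 1 library 0 to 3 and 0 to 6. There the same-number correlations were 0.239, 0.518 and 0.098, the last under 0.1, so equal numbers were not taken as pairs. The block gave 4 and 5, with 4 of the 8 calls shared and Map2, Heph, Ugt8a and Fam169a at adjusted p = 0.0607 to 0.0697. For sgNrf2 against controls A and B (266 and 351), quantile normalization gave 407 and 565, DESeq2 1181 and 1458, equal totals 874 higher, and leaving out 1 library 1 to 1739 and 2 to 1644. Equal totals moved the median of all genes in sgCul3 minus sgKeap1 to 0.23. The sign of 4 uncalled differences from sgGFP turned. On the log2 scale, Nfe2l2 was at -0.06, at 0.0020 with edgeR and at -0.42 to 0.17 without 1 library, with a positive sign without sgGFP tumour 2 or sgCul3 tumour 1 or 2. Bsn was at 0.15 and at -0.054 to 0.31 without 1 library, Glipr2 at 0.05 and at -0.092 to 0.19, both lowest without sgCul3 tumour 1, and Rec8 at -0.29 and at -0.70 to 0.046, highest without sgCul3 tumour 3. The causes were not tested. No T and NK marker reached a mean of 50. Depth limits genes near 0 reads, most of all in sgCul3 tumour 1.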

Other observations

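The median of the 234 of 306 tested genes of chromosome 18 whose mean deposited value in sgGFP tumours was over 100, measured from the mean of the sgGFP tumours on the log2 scale, lay at -0.26, -0.31 and -0.08 in sgCul3 tumours 1 to 3 and at -0.21, -0.27, 0.19 and 0.26 in sgGFP tumours 1 to 4. The median of the 9 of 12 tested mitochondrial genes over that level lay at 0.25, -0.10 and -1.92 in sgCul3 tumours and at -1.31, 0.38, -0.38 and 1.21 in sgGFP tumours.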
